A study of Mus musculus with 6 samples.

Results

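Serpins and the other gene families that encode protease inhibitors were examined in ovaries of Rnf111+/- mice and of wild-type mice. The genes were taken by symbol: those starting with Serpin, Itih, Timp or Spink, those with Cst followed by a digit, and Cstb, Mug1, Mug2, A2m and Pzp. Of 35415 symbols in the count table, 100 matched. The 40 with at least 10 counts in at least 3 of the 6 libraries are described here, and all 40 were among the 16841 genes expressed highly enough to be tested. They comprise 22 serpins, 5 cystatins, 4 inter-alpha-trypsin inhibitor heavy chains (Itih), 4 tissue inhibitors of metalloproteases (Timp), 3 alpha-macroglobulins and 2 Kazal-type inhibitors (Spink).

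Each library came from the ovary of 1 mouse aged 3 months and at estrus, the phase around ovulation, and there were 3 Rnf111+/- and 3 wild-type libraries. The Rnf111+/- mice carry 1 edited copy of Rnf111, made by CRISPR-Cas9. That gene encodes Arkadia, a ubiquitin ligase that acts on inhibitors of TGF-beta family signalling. The series' text names 2 edited models, and the sources used here do not say which was sequenced. Rnf111 itself had 1773, 1759 and 1712 counts in Rnf111+/- libraries and 2060, 2063 and 2130 in wild-type libraries, so the groups did not overlap (log2 fold change -0.27 ± 0.07, SE).

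Protease inhibitors decide how far extracellular proteolysis goes, and the ovary depends on that balance when a follicle wall opens at ovulation and when a corpus luteum forms and regresses. A serpin offers a bait loop to a serine or cysteine protease and traps it after cleavage. Alpha-macroglobulins enclose a protease in a cage, TIMPs block the active site of metalloproteases, and many cystatins plug the cleft of cysteine cathepsins. Inter-alpha-inhibitor heavy chains are transferred to hyaluronan and stiffen the matrix around the cumulus cells. Not all of the families act outside the cell: clade B serpins and cystatin B stay mostly in the cytosol, and some serpins (Serpinh1, Serpinf1) inhibit no protease.

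Libraries held 38261449 to 39474515 counts, and levels are given as CPM, read counts scaled to a common library size with the trimmed mean of M values. At this depth 3 counts corresponded to 0.0747 to 0.0784 CPM. The 40 genes together took 0.43 to 0.473% of the counts in Rnf111+/- libraries and 0.432 to 0.468% in wild-type libraries. Wild-type replicate 3 stood apart from the other wild-type libraries, with correlations of log2 CPM of 0.974 and 0.975 against 0.986 to 0.989 for other pairs within a genotype. It also carried more of some transcripts of oviduct epithelium. Ovgp1, the oviductal glycoprotein, had 104, 315 and 187 counts in Rnf111+/- libraries and 71, 242 and 5730 in wild-type replicates 1, 2 and 3. The cilia gene Dnah5 had 4, 7 and 16 counts in Rnf111+/- libraries and 7, 22 and 572 in the wild-type ones. Foxj1 had 21, 66 and 20 counts in Rnf111+/- libraries and 2, 20 and 535 in the wild-type ones. The rest of the 6 listed oviduct markers did not stand out in wild-type replicate 3. In wild-type replicates 1, 2 and 3, Pax8 had 4, 16 and 20 counts. Muc16 was at 43.2, 46.0 and 30.9 CPM there, and Epcam at 59.7, 56.6 and 55.5 CPM. Where a protease inhibitor or protease named below gained or lost its call without that library, this is stated beside it. Ovarian markers were present in all libraries, such as the 11 granulosa genes, which summed to 8489 to 11766 CPM in Rnf111+/- ovaries and 3774 to 8427 CPM in wild-type ovaries.

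Between the genotypes, 12 of the 40 inhibitor genes (30%) passed edgeR's quasi-likelihood test at an adjusted p under 0.05, against 9.64% of all tested genes. Mug1, Mug2, Serpina3c, Serpina5, Itih2 and Itih5 rose in Rnf111+/- ovaries, which is 15% of the genes against 3.9% of all tested genes that rose. Falls made up 15% again, among them those of Timp4, Serpina3n, Cstb, Serpinb6a and Serping1, against 5.74% of all tested genes. The 2 genotypes did not overlap for 20 of the 40 genes (50%), against 32% of all tested genes. The median log2 fold change of the 40 was -0.14, beside -0.01 for all tested genes, and the median absolute value was 0.71, beside 0.20. All 12 were among the 32 inhibitor genes that averaged 1 CPM or more. Of these 12 calls, 10 held in each of the 6 fits that left out 1 library. Among those fits, the call of Serping1 held only in the one without wild-type replicate 3. In bulk tissue, fewer cells of a type and less RNA per cell cannot be told apart.

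Markers of ovarian cell types also differed between the genotypes. The 7 corpus luteum markers summed to 7061, 5769 and 8651 CPM in Rnf111+/- ovaries and to 2021, 2824 and 3371 CPM in wild-type ovaries, but 1 of the 7 fell and none rose as single genes. The higher sum came from Akr1c18, Sfrp4 and Ptgfr, which did not pass, while the log2 fold changes of the other 4 were below 0 and the median of the 7 was -0.05. The 8 oocyte markers summed to 205 to 270 CPM in Rnf111+/- ovaries and to 145 to 164 CPM in wild-type ovaries, and 6 of them rose. The 6 smooth muscle markers summed to 670 to 906 CPM in Rnf111+/- ovaries and to 1095 to 1436 CPM in wild-type ovaries, and 3 of them fell. The 7 stroma markers summed to 2074 to 2447 CPM in Rnf111+/- ovaries and to 3375 to 3959 CPM in wild-type ovaries, and 5 of them fell, as did 5 of 7 endothelial markers. Of 8 theca and interstitial markers, 1 rose and 2 fell. Beside these counts, 3.9% of all tested genes rose and 5.74% fell. The part of these cell types in the results on inhibitors was not tested.

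**Figure D1:**
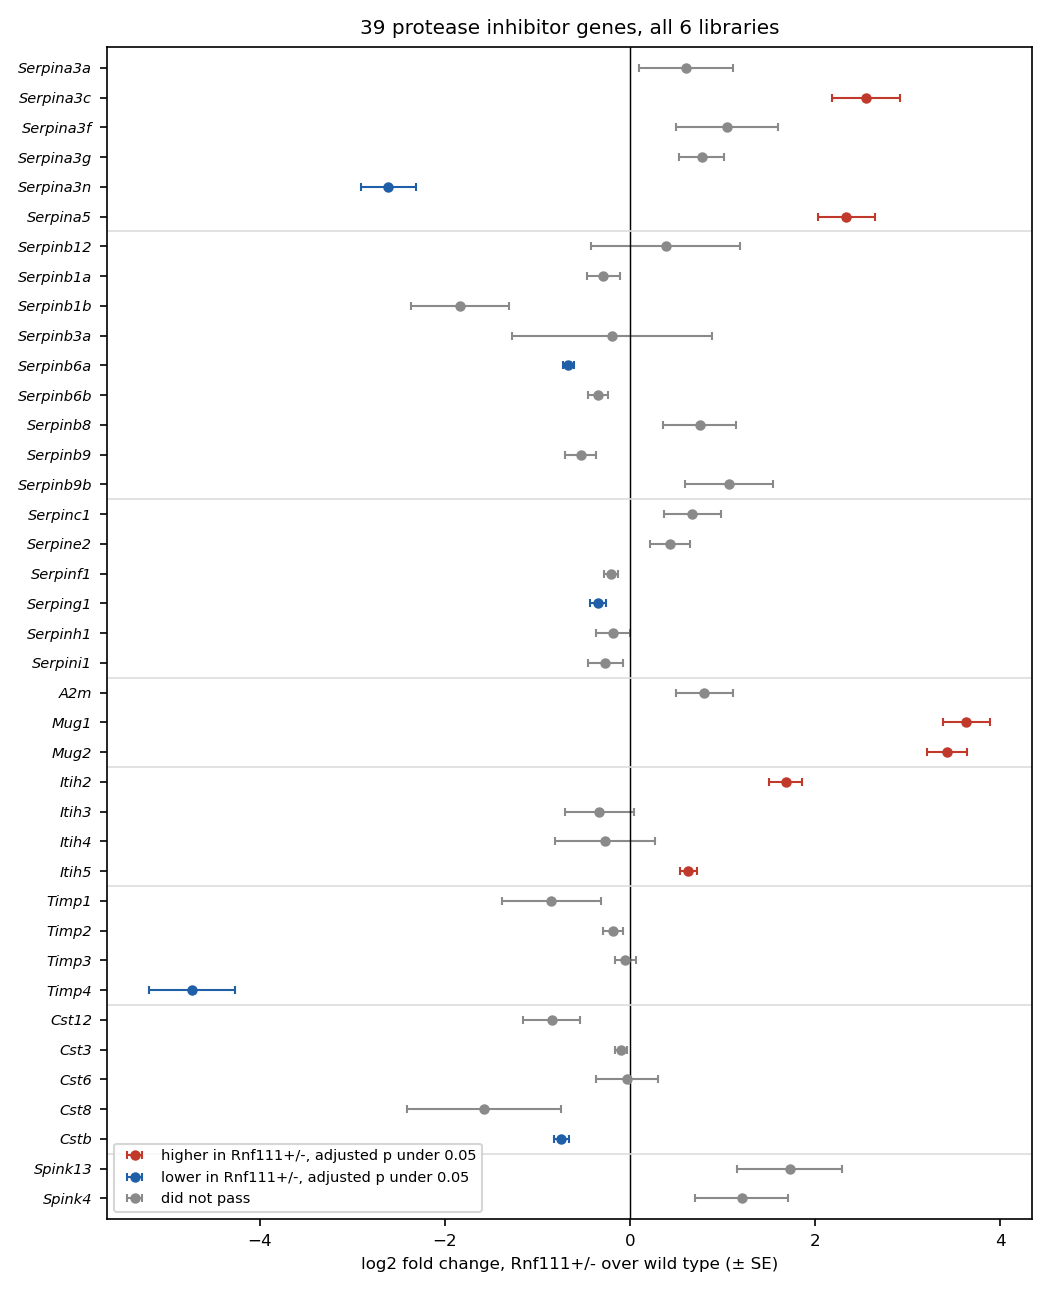
Log2 fold change (Rnf111+/- over wild type, x axis) of 39 protease inhibitor genes (y axis), grouped by family, with bars of 1 standard error. The 6 genes in red passed as higher, the 5 in blue as lower, and Mug1 and Timp4 lie at the extremes at 3.63 and -4.73.

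The murinoglobulins showed the largest rises. Mug1 and Mug2 encode single-chain alpha-macroglobulins of rodents, protease-trapping proteins best known from liver and plasma. Mug2 was at 26.4, 26.2 and 34.3 CPM in Rnf111+/- ovaries and at 1.98, 2.67 and 3.42 CPM in wild-type ovaries. All Rnf111+/- libraries lay far above all wild-type libraries, a 10.8-fold difference (log2 3.43 ± 0.22, adjusted p = 0.00015). Mug1 moved in the same direction, at 9.96, 9.12 and 11.8 CPM in Rnf111+/- ovaries and 0.757, 0.622 and 1.10 CPM in wild-type ovaries (log2 3.63 ± 0.26, adjusted p = 0.000232). The groups did not overlap, and leaving out single libraries gave log2 values from 3.47 to 3.90 for Mug1 and from 3.26 to 3.65 for Mug2. Per kilobase of exon, Mug2 averaged 6.33 RPKM in Rnf111+/- ovaries and 0.588 RPKM in wild-type ovaries, and Mug1 1.78 RPKM in Rnf111+/- ovaries and 0.143 RPKM in wild-type ovaries.

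These genes are close copies on chromosome 6. Of all 50-base stretches in the GENCODE transcripts of Mug2, 50.5% also occur in another gene, 37.1% in the pseudogene Mug-ps1, and for Mug1 the share is 26.5%. How reads were divided among them is uncertain, so the 2 values may not be independent. The copies also share their upstream sequence, as the windows before their starts show (RefSeq, GRCm38.p6). The window of Mug1 lies at chr6:121838291-121838540 and that of Mug2 at chr6:122006548-122006760, both on the plus strand, and capitals mark the bases that differ in the alignment of the pair.
Mug1: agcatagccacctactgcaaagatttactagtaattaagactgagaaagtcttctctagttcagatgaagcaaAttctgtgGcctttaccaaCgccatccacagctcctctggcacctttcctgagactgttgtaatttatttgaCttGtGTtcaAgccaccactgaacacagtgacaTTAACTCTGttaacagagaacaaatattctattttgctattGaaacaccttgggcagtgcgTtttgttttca
Mug2: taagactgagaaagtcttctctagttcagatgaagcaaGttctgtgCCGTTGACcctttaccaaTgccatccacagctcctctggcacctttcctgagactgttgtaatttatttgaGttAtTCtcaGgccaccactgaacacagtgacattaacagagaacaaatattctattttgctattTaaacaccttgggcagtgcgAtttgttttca
Over the 222 aligned columns, 196 bases (88.3%) were identical, 10 were mismatched and 16 stood against a gap.

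The third macroglobulin gene above the count minimum was A2m. It was at 2.49, 2.66 and 2.04 CPM in Rnf111+/- ovaries and 1.80, 0.985 and 1.33 CPM in wild-type ovaries, and did not pass although the groups did not overlap (log2 0.80 ± 0.31, adjusted p = 0.142). Pzp, the pregnancy zone protein gene, did not reach the count minimum. Of 9 hepatocyte markers, Fga had no count in any library, and Alb, the albumin gene, had 2, 1 and 3 counts in Rnf111+/- libraries and 3, 5 and 1 in wild-type libraries. The summed level of the list was 49.8 to 61.7 CPM in Rnf111+/- ovaries and 56.9 to 69.0 CPM in wild-type ovaries, of which Apoa1 made up 46.7 to 58.5 and 47.0 to 56.1 CPM. Of the 8 tested receptors and chaperones that clear protease complexes, 0 passed in the main edgeR fit and 2 had an unadjusted p under 0.05. In DESeq2, and in edgeR with no filter beyond 1 count, 1 passed. Without wild-type replicate 3, 2 passed, in a fit where 16.2% of all tested genes passed.

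Among clade A serpins, the extracellular group that includes antitrypsin, Serpina5 and Serpina3c rose and Serpina3n fell. Serpina5 encodes protein C inhibitor, which acts on activated protein C, urokinase and other trypsin-like enzymes and in mice is made mainly in the reproductive tract. It was at 121, 120.5 and 182 CPM in Rnf111+/- ovaries and at 36.8, 29.0 and 17.9 CPM in wild-type ovaries, with no overlap. This was a 5.06-fold difference (log2 2.34 ± 0.31, adjusted p = 0.00961), with log2 values of 2.11 to 2.60 when single libraries were left out.

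The Serpina3 genes are a mouse cluster that corresponds to the single human antichymotrypsin gene. Serpina3c was at 24.6, 26.3 and 44.7 CPM in Rnf111+/- ovaries and at 7.36, 3.21 and 5.72 CPM in wild-type ovaries (log2 2.55 ± 0.36, adjusted p = 0.0102). Serpina3n, an inhibitor of granzyme B and of leukocyte proteases, was at 1.89, 1.58 and 1.02 CPM in Rnf111+/- ovaries and at 7.70, 7.65 and 12.2 CPM in wild-type ovaries. The groups did not overlap for either gene, in opposite directions, and Serpina3n was 6.12-fold lower in Rnf111+/- ovaries (log2 -2.61 ± 0.30, adjusted p = 0.00179). Of the other 3 cluster genes above the count minimum, Serpina3g, an inhibitor of cysteine cathepsins in leukocytes, was at 55.5, 40.02 and 66.6 CPM in Rnf111+/- ovaries and 31.4, 23.6 and 39.7 CPM in wild-type ovaries. Its groups did not overlap by a narrow gap, and it did not pass (log2 0.78 ± 0.24, adjusted p = 0.102). Serpina3a and Serpina3f were near 1 CPM or below in all libraries.

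Although they moved in opposite directions, Serpina3c and Serpina3n have similar sequences upstream of their starts. Windows of the other cluster genes were not aligned. The 250 bases before the start of each (RefSeq, GRCm38.p6) lie at chr12:104153873-104154122 on the minus strand for Serpina3c and at chr12:104406458-104406707 on the plus strand for Serpina3n. Capitals mark mismatched bases.
Serpina3c: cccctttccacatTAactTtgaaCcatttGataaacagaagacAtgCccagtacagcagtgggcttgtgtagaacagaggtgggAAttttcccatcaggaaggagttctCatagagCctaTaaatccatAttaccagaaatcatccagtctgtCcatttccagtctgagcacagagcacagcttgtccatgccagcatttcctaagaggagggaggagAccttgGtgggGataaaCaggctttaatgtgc
Serpina3n: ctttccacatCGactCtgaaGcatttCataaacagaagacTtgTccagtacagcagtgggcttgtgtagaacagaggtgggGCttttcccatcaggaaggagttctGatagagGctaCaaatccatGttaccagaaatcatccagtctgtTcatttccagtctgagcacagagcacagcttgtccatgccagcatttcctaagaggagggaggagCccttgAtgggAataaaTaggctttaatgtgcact
Over 247 aligned bases, 229 (92.7%) were identical and 18 were mismatched, with no gap. Of 7 motifs searched on both strands, only TATAAA was found, once, in the Serpina3c window at base 119, with no other motif overlapping it, and none was found in the Serpina3n, Mug1 or Mug2 windows. TATAAA occurs in 12.4% of 32851 promoter windows of this length. It was found in 6 of 35 windows of the inhibitor genes, among them those of Serpina3a and Serpina3f, which did not pass. The other 6 motifs were TGACGTCA (the cAMP response element, in 1.55% of windows), TGANTCA (AP-1, 6.75%), TTCNNNGAA (STAT, 7.02%), AAGGTCA (NR5A, 4.08%), TGTGGT (RUNX, 14%) and GTCTAGAC (SMAD, 0.167%). Within transcripts the 2 genes are separable: 4.25% of the 50-base stretches of Serpina3c and 6.9% of those of Serpina3n occur in another gene.

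**Figure D2:**
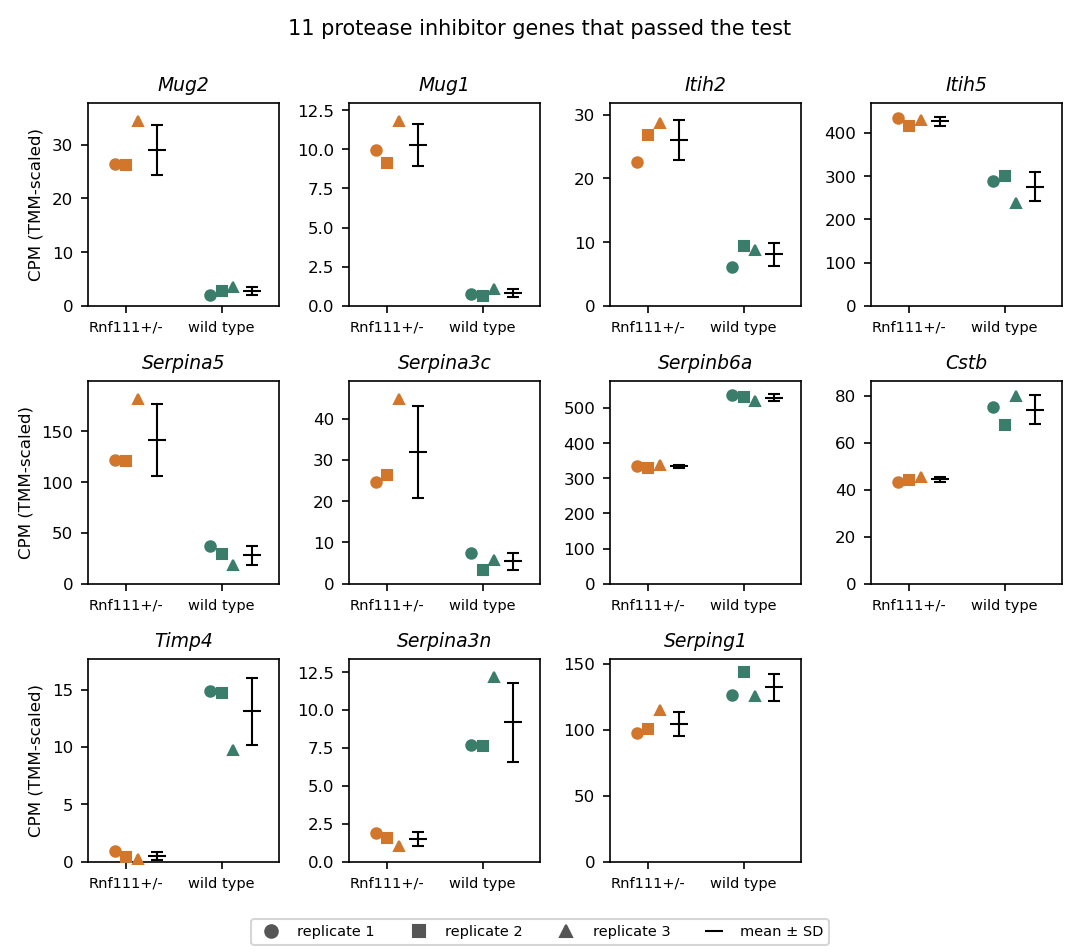
CPM (y axis, from 0) in Rnf111+/- (left, orange) and wild-type ovaries (right, green) for 11 inhibitor genes that passed, with a symbol for each replicate and the mean ± SD of 3 libraries. The groups do not overlap in any panel, and Timp4 is below 1 CPM in all Rnf111+/- libraries.

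The heavy chain genes Itih2 and Itih5 rose. Itih2 encodes a chain of the inter-alpha-inhibitor that is coupled to hyaluronan in the expanding cumulus. It was at 22.6, 26.8 and 28.7 CPM in Rnf111+/- ovaries and at 6.05, 9.46 and 8.84 CPM in wild-type ovaries, a 3.21-fold difference without overlap (log2 1.68 ± 0.18, adjusted p = 0.00143). Itih5, a further heavy chain of the family, was at 434, 415 and 430.1 CPM in Rnf111+/- ovaries and at 289, 300 and 237 CPM in wild-type ovaries (log2 0.63 ± 0.09, adjusted p = 0.00595). Per kilobase of exon it was the most abundant of the 4, at 54.0 ± 1.30 RPKM in Rnf111+/- ovaries and 34.9 ± 4.22 RPKM in wild-type ovaries (SD, n = 3 each), and Itih2 was at 7.86 ± 0.938 RPKM in Rnf111+/- ovaries and 2.45 ± 0.547 RPKM in wild-type ovaries. Itih3 and Itih4 were below 1.2 CPM in every library and did not pass (adjusted p = 0.634 and 0.8). Of 8 tested genes of the hyaluronan matrix, to which heavy chains bind, 0 passed in edgeR or DESeq2, and 1 (Vcan) had an unadjusted p under 0.05. Without wild-type replicate 3, in a fit where 16.2% of all tested genes passed, Tnfaip6 rose and Vcan fell. Tnfaip6, which carries out the transfer, had 44, 99 and 108 counts in Rnf111+/- libraries and 33, 27 and 101 in wild-type libraries (log2 0.64 ± 0.56, adjusted p = 0.537), and without wild-type replicate 3 its value was 1.47 (adjusted p = 0.0479). Vcan, which encodes versican, was at 124 ± 8.55 CPM in Rnf111+/- ovaries and 209.8 ± 86.4 CPM in wild-type ovaries (log2 -0.76 ± 0.28, adjusted p = 0.153), and its value without that library was -0.36 (adjusted p = 0.00882).

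Among the tissue inhibitors of metalloproteases, Timp4 alone passed. Timp4, the member with the most restricted expression, had 36, 14 and 8 counts in Rnf111+/- libraries and 572, 567 and 380 counts in wild-type libraries. The levels were 0.897, 0.358 and 0.209 CPM in Rnf111+/- ovaries and 14.9, 14.7 and 9.71 CPM in wild-type ovaries, 26.9-fold lower in the mutants (log2 -4.73 ± 0.47, adjusted p = 0.00155). The groups lay more than 10-fold apart at their closest libraries, and leaving out single libraries gave log2 values from -5.51 to -4.37. Timp4 lies inside the gene Syn2 on the opposite strand. Exons of the genes overlap over 1.53% of the exonic length of Timp4, and Syn2 was at 4.51 ± 0.313 CPM in Rnf111+/- ovaries and 2.87 ± 0.651 CPM in wild-type ovaries (log2 0.65 ± 0.23, adjusted p = 0.114).

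The other 3 Timp genes were far more abundant per kilobase than Timp4 and did not pass. In Rnf111+/- ovaries Timp2 stood at 83.0 ± 6.08, Timp1 at 64.3 ± 10.7, Timp3 at 42.1 ± 6.93 and Timp4 at 0.0828 ± 0.0614 RPKM. In wild-type ovaries Timp1 stood at 116 ± 83.8, Timp2 at 94.0 ± 13.6, Timp3 at 43.5 ± 2.74 and Timp4 at 2.22 ± 0.501 RPKM (SD, n = 3 each). Timp1 and Timp2 did not differ beyond their spread in wild-type ovaries. Timp2, which with Mmp14 helps to activate Mmp2, was at 340, 296 and 334 CPM in Rnf111+/- ovaries and at 315.5, 363 and 421 CPM in wild-type ovaries. The groups overlapped, with a log2 fold change of -0.18 ± 0.11 (adjusted p = 0.351). Timp3, which is bound to the matrix and also blocks ADAM and ADAMTS enzymes, was at 404, 292 and 332 CPM in Rnf111+/- ovaries and at 337, 379 and 346 CPM in wild-type ovaries. Its wild-type values lay within the Rnf111+/- range, with a log2 fold change of -0.05 ± 0.12, an interval of 2 standard errors from -0.28 to 0.18. Timp1 was at 60.6, 46.4 and 64.4 CPM in Rnf111+/- ovaries and at 69.5, 50.8 and 188 CPM in wild-type replicates 1, 2 and 3. Its highest value was that of the wild-type library high in Ovgp1, Foxj1 and Dnah5. The log2 fold change of Timp1 was -0.85 ± 0.53 (adjusted p = 0.396) with all libraries and -0.06 ± 0.18 (adjusted p = 0.856) without that library. The part of oviduct tissue in this value was not tested. Syn1 and Syn3 are the genes in which Timp1 and Timp3 lie. Syn1 was at 7.70 ± 1.63 CPM in Rnf111+/- ovaries and 3.19 ± 2.30 CPM in wild-type ovaries (log2 1.27 ± 0.47, adjusted p = 0.144), and Syn3 at 3.21 ± 0.411 CPM in Rnf111+/- ovaries and 2.88 ± 1.15 CPM in wild-type ovaries. Exons of Syn3 cover 21.3% of the exonic length of Timp3 on the other strand.

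**Figure D3:**
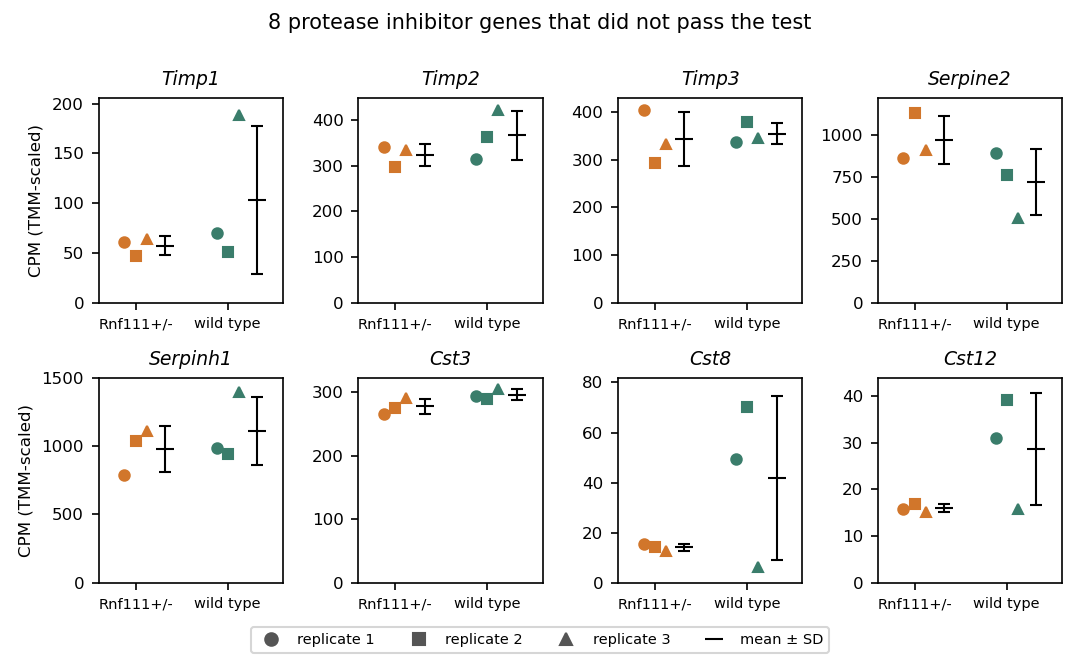
CPM (y axis, from 0) in Rnf111+/- (left, orange) and wild-type ovaries (right, green) for 8 inhibitor genes that did not pass, with a symbol for each replicate and the mean ± SD of 3 libraries. Wild-type replicate 3 (triangle) is the highest library for Timp1 at 188 CPM and Serpinh1 at 1398 CPM and the lowest for Cst8 at 6.18 CPM.

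Many, though not all, cystatins are inhibitors of cysteine cathepsins, and of 5 described here Cstb fell and none rose. Cystatin B, the product of Cstb, is a cytosolic guard against cathepsins that leak from lysosomes. It was at 43.5, 44.3 and 45.4 CPM in Rnf111+/- ovaries and at 75.4, 67.4 and 79.7 CPM in wild-type ovaries, with a narrow spread and no overlap (log2 -0.74 ± 0.08, adjusted p = 0.00153). Cst3, which encodes cystatin C, the main secreted member, was at 267, 276 and 291 CPM in Rnf111+/- ovaries and at 294, 289 and 306 CPM in wild-type ovaries, with slight overlap (log2 -0.09 ± 0.07, adjusted p = 0.429). Cst6 was at 3.61 ± 1.70 CPM in Rnf111+/- ovaries and 3.69 ± 0.645 CPM in wild-type ovaries.

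The values of Cst8 and Cst12, cystatins of the reproductive tract, depended on wild-type replicate 3. Cst8 was at 15.4, 14.2 and 12.7 CPM in Rnf111+/- ovaries and at 49.3, 70.2 and 6.18 CPM in wild-type replicates 1, 2 and 3. Cst12 was at 15.8, 16.8 and 15.2 CPM in Rnf111+/- ovaries and at 30.9, 39.2 and 15.7 CPM in the wild-type ones. In both genes 2 wild-type libraries lay above all Rnf111+/- libraries and the other lay below or among them. With all libraries neither passed (Cst8 log2 -1.57 ± 0.83, adjusted p = 0.321; Cst12 -0.84 ± 0.31, adjusted p = 0.147). Without wild-type replicate 3 Cst8 fell by 2.08 ± 0.15 (adjusted p = 3.12e-05) and Cst12 by 1.13 ± 0.12 (adjusted p = 0.000124) on the log2 scale. Cst13, a neighbouring gene under the count minimum, had 2, 4 and 2 counts in Rnf111+/- libraries and 17, 18 and 1 in wild-type replicates 1, 2 and 3.

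Serpine2, protease nexin 1 of granulosa cells, which holds back urokinase and thrombin, was at 865, 1136 and 916 CPM in Rnf111+/- ovaries and at 897, 764 and 505 CPM in wild-type ovaries. Its groups overlapped and it did not pass (log2 0.43 ± 0.22, adjusted p = 0.274). Its lowest library, wild-type replicate 3, also had the lowest summed granulosa markers at 3774 CPM, and without it the value was 0.24 ± 0.13 (adjusted p = 0.266). The part of granulosa cells in it was not tested.

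Serping1, the C1 inhibitor that restrains the complement and kallikrein cascades, was at 97.3, 101 and 115 CPM in Rnf111+/- ovaries and at 127, 144 and 125 CPM in wild-type ovaries. It fell by 0.34 ± 0.09 on the log2 scale (adjusted p = 0.0456), close to the threshold. The call held without wild-type replicate 3 (adjusted p = 0.0147) and was lost without any 1 of the other 5 libraries (adjusted p from 0.0573 to 0.174). The sums of the stroma markers given above, and of the endothelial markers, were lower in Rnf111+/- ovaries. Not every marker fell, and stroma marker Tcf21 had a log2 value of 0.11 and did not pass. Endothelial markers summed to 258 to 297 CPM in Rnf111+/- ovaries and 355 to 427 CPM in wild-type ovaries. Their part in the fall of Serping1 was not tested.

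Clade B serpins, mostly cytosolic, had 1 fall, no rise and 8 genes that did not pass, with 6 of the 9 below 0. The share that passed, 11.1%, was near the 9.64% of all tested genes. Serpinb6a, an inhibitor of cathepsin G and trypsin-like enzymes, was at 334, 329 and 338 CPM in Rnf111+/- ovaries and at 538, 531 and 520 CPM in wild-type ovaries. Replicates differed by a few percent and the groups stood well apart (log2 -0.67 ± 0.06, adjusted p = 0.000685). Exons of 3 genes on the opposite strand, Nqo2, Ripk1 and 1110046J04Rik, cover 29.3% of its exonic length, and without a stated strand setting their reads cannot be told apart from its own. Nqo2 had a log2 fold change of -0.48 ± 0.11, Ripk1 -0.01 ± 0.07 and 1110046J04Rik -0.30 ± 0.22. The neighbour Serpinb6b was at 85.1, 115.5 and 108 CPM in Rnf111+/- ovaries and at 138, 127 and 126 CPM in wild-type ovaries, with no overlap, and did not pass (log2 -0.34 ± 0.11, adjusted p = 0.0928).

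Serpinb9, the cell's own guard against granzyme B, was at 43.8, 50.4 and 51.8 CPM in Rnf111+/- ovaries and at 65.0, 56.3 and 89.9 CPM in wild-type ovaries, again with no overlap (log2 -0.53 ± 0.17, adjusted p = 0.0958). It passed without wild-type replicate 2 (-0.66, adjusted p = 0.0494). Serpinb1b had 19, 5 and 8 counts in Rnf111+/- libraries and 41, 42 and 30 in wild-type libraries (log2 -1.84 ± 0.53, adjusted p = 0.0655), and passed without wild-type replicate 3 (-1.97, adjusted p = 0.0438). Its copy Serpinb1a, the leukocyte elastase inhibitor, was at 64.5 ± 9.50 CPM in Rnf111+/- ovaries and 78.7 ± 18.4 CPM in wild-type ovaries (log2 -0.29 ± 0.18, adjusted p = 0.376). Serpinb8 and Serpinb9b had log2 values of 0.75 ± 0.39 and 1.07 ± 0.47 at 2.71 and 1.07 CPM in Rnf111+/- ovaries (adjusted p = 0.272 and 0.2). Serpinb12 and Serpinb3a reached 42 and 29 counts in wild-type replicate 3 but at most 12 and 6 in the other wild-type libraries. In Rnf111+/- libraries Serpinb12 had 25, 30 and 19 counts and Serpinb3a had 16, 11 and 4, and neither gene passed.

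The serpin genes Serpinh1, Serpinf1, Serpini1 and Serpinc1 did not pass. Serpinh1, the collagen chaperone HSP47, was the most abundant of the 40 genes per kilobase, at 400 ± 69.3 RPKM in Rnf111+/- ovaries and 454 ± 103 RPKM in wild-type ovaries (SD, n = 3 each). In CPM it was at 785.5, 1038 and 1107 in Rnf111+/- ovaries and at 989, 941 and 1398 in wild-type ovaries, and the groups overlapped (log2 -0.18 ± 0.19, adjusted p = 0.592). Serpinf1, which encodes the vessel-restraining factor PEDF, was at 87.2, 84.4 and 96.4 CPM in Rnf111+/- ovaries and at 99.4, 111 and 98.5 CPM in wild-type ovaries. Its groups did not overlap, but the difference was small (log2 -0.20 ± 0.08, adjusted p = 0.154). Serpini1, neuroserpin, was at 7.52, 5.13 and 6.74 CPM in Rnf111+/- ovaries and at 6.84, 7.72 and 8.73 CPM in wild-type ovaries, with overlap (log2 -0.26 ± 0.19). Serpinc1, which encodes antithrombin, was at 2.69 ± 0.809 CPM in Rnf111+/- ovaries and 1.69 ± 0.312 CPM in wild-type ovaries (log2 0.67 ± 0.31, adjusted p = 0.216), and exons of Zbtb37 on the other strand cover 34.4% of its exonic length.

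Of the Kazal-type inhibitors, which block trypsin-like enzymes and acrosin, Spink13 and Spink4 were above the count minimum and neither passed. Spink13 had 51, 104 and 61 counts in Rnf111+/- libraries and 41, 11 and 12 in wild-type libraries (log2 1.73 ± 0.57, adjusted p = 0.0958). It passed without wild-type replicate 1, its highest wild-type library (2.63, adjusted p = 0.0289). Spink4 had 61, 50 and 119 counts in Rnf111+/- libraries and 27, 18 and 54 in wild-type libraries (log2 1.21 ± 0.50, adjusted p = 0.175), and passed without wild-type replicate 3 (1.75, adjusted p = 0.0313).

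**Figure D4:**
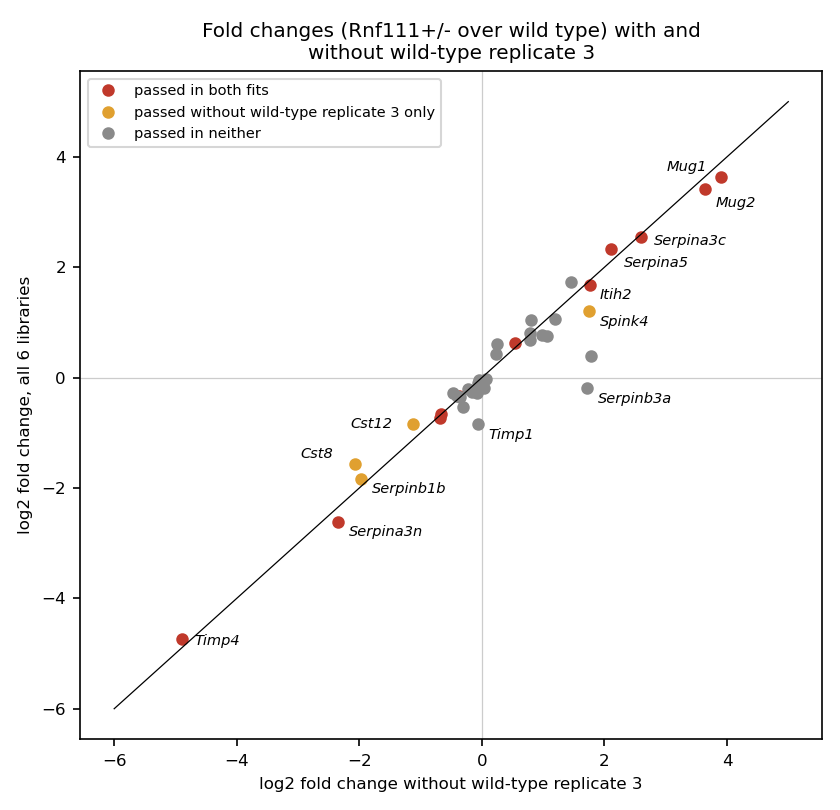
Log2 fold change (Rnf111+/- over wild type) of 39 genes without wild-type replicate 3 (x axis) and with all 6 libraries (y axis), with the line of equal values. The 11 genes in red passed in both fits, the 4 in yellow (Cst8, Cst12, Serpinb1b and Spink4) passed without that library, and Serpinb3a and Serpinb12 lie farthest from the line.

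Of the 100 matching symbols, 60 fell below the count minimum, and 22 of these had no count in any library. Just inside the minimum, Serpinb3a reached 10 counts in 3 libraries, with 16, 11 and 4 counts in Rnf111+/- libraries and 6, 0 and 29 in wild-type libraries. Just outside, Cst9 had 7, 2 and 8 counts in Rnf111+/- libraries and 26, 13 and 8 in wild-type libraries, and Spink5 had 19, 7 and 7 in Rnf111+/- libraries and 2, 2 and 18 in wild-type libraries. Cst7 and Serpinf2, which encodes antiplasmin, also reached the minimum in 2 libraries each. Serpinb11 had 1, 4 and 3 counts in Rnf111+/- libraries and 0, 0 and 84 in wild-type replicates 1, 2 and 3.

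The proteases that these inhibitors act on were read from 4 lists, which also hold receptors, cofactors and a few inhibitors, so their counts are not those of proteases alone. Of 82 distinct tested genes, 4 rose, 11 fell and 67 did not pass (18.3% passed, against 9.64% of all tested genes), with a median log2 fold change of -0.20. Some of those that passed, such as F2r, F3, F13a1 and Reck, encode no protease. In the plasminogen and clotting list, 1 of 26 rose and 5 fell (23.1% passed). Without wild-type replicate 3, 2 rose and 6 fell, in a fit where 16.2% of all tested genes passed. Prss23, a secreted serine protease of the ovary, was at 284, 285 and 351 CPM in Rnf111+/- ovaries and at 80.4, 98.4 and 86.6 CPM in wild-type ovaries (log2 1.79 ± 0.11, adjusted p = 0.00015). Prss35, a related family member of the follicle wall, was at 417, 493 and 590 CPM in Rnf111+/- ovaries and at 1832, 1665 and 2796 CPM in wild-type ovaries (log2 -2.07 ± 0.23, adjusted p = 0.00427). These 2 relatives were thus far apart between the genotypes in opposite directions. F3, tissue factor, which starts clotting, fell by 1.82 ± 0.25 (adjusted p = 0.00706) and F13a1, a subunit of the clot-crosslinking factor, by 1.45 ± 0.21 (adjusted p = 0.00542) on the log2 scale. These 4 calls held in each of the 6 fits without 1 library. The other falls were those of F2r, the thrombin receptor (-0.45 ± 0.08, adjusted p = 0.013), and C1s1, a complement protease that Serping1 blocks (-0.71 ± 0.13, adjusted p = 0.0178). C1s1 passed without wild-type replicates 2 or 3 and in no other such fit, and F2r passed without wild-type replicates 1 or 3 or Rnf111+/- replicate 1. The plasminogen activators themselves did not pass with all 6 libraries: Plat was at 74.7 ± 6.67 CPM in Rnf111+/- ovaries and 72.1 ± 35.1 CPM in wild-type ovaries, and Plau at 143 ± 20.2 CPM in Rnf111+/- ovaries and 135 ± 41.6 CPM in wild-type ovaries. Both were named after their values were seen. Without wild-type replicate 3, Plat passed as higher (log2 0.53, adjusted p = 0.00519) and Plau did not pass (0.36, adjusted p = 0.0965).

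In the metalloprotease list, 2 of 24 rose and 4 fell (25% passed, against 9.64% of all tested genes). Without wild-type replicate 3 there were 4 rises and 5 falls, in a fit where 16.2% of all tested genes passed. Of the 2 rises, 1 was that of Reck, a membrane-anchored inhibitor of metalloproteases (log2 0.43 ± 0.10, adjusted p = 0.0357). Adamts5, an aggrecanase that Timp3 blocks, was at 39.0, 56.3 and 73.6 CPM in Rnf111+/- ovaries and at 17.4, 19.4 and 13.8 CPM in wild-type ovaries (log2 1.74 ± 0.24, adjusted p = 0.00853). Mmp15, a membrane-bound metalloprotease, fell by 0.53 ± 0.08 (adjusted p = 0.00657) on the log2 scale. Both calls held in each fit without 1 library. Mmp19 was at 11.1, 7.05 and 7.63 CPM in Rnf111+/- ovaries and at 27.3, 26.4 and 52.8 CPM in wild-type ovaries and fell by 2.05 ± 0.33 (adjusted p = 0.0144), a call lost without Rnf111+/- replicates 2 (adjusted p = 0.0726) or 3 (0.0731). Adamts9 fell by 0.66 ± 0.14 (adjusted p = 0.0246), lost without any 1 of the Rnf111+/- libraries (0.0864 to 0.0943). Adamts1, the aggrecanase of ovulating follicles, was at 36.0, 32.8 and 39.5 CPM in Rnf111+/- ovaries and at 248, 122 and 548 CPM in wild-type ovaries, with a wide spread in wild type (log2 -3.08 ± 0.60, adjusted p = 0.0396). It passed without wild-type replicates 2 (-3.45, adjusted p = 0.0116) or 3 (-2.35, adjusted p = 0.0245) and in no other such fit. Mmp2 and Mmp14, named after their values were seen, did not pass with all 6 libraries. Mmp2 was at 118 ± 5.76 CPM in Rnf111+/- ovaries and 140 ± 19.4 CPM in wild-type ovaries, and Mmp14 at 294 ± 14.6 CPM in Rnf111+/- ovaries and 249 ± 67.7 CPM in wild-type ovaries. Mmp14 passed as higher without wild-type replicate 3 (log2 0.50, adjusted p = 0.000728, beside 0.24 with all 6 libraries).

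Of 12 cysteine cathepsins and related genes, a group that holds the targets of many cystatins, Ctsl alone passed (8.33%, against 9.64% of all tested genes). Without wild-type replicate 3, in a fit where 16.2% of all tested genes passed, 3 of the 12 rose and 3 fell, Ctsl among the rises. It was at 1271, 1438 and 1348 CPM in Rnf111+/- ovaries and at 946, 929.7 and 892 CPM in wild-type ovaries (log2 0.55 ± 0.07, adjusted p = 0.00385), the opposite direction to Cstb, and the call held in each fit without 1 library. Ctsc, the activator of granule proteases, had a log2 value of -0.84 ± 0.24 (adjusted p = 0.0876) and Ctsz -0.19 ± 0.07 (adjusted p = 0.112). Ctsa, a serine carboxypeptidase on the list, had -0.20 ± 0.08 (adjusted p = 0.152). Ctsc and Ctsa passed as lower without wild-type replicate 3, at -0.52 (adjusted p = 0.0156) and -0.25 (0.0277). Of 20 tested trypsin-like, kallikrein, convertase and granule proteases, none rose and 2 fell (10% passed, near the 9.64% of all tested genes). Without wild-type replicate 3 there were 1 rise and 4 falls, beside 16.2% of all tested genes that passed in that fit. Htra3, a secreted serine protease, fell by 0.73 ± 0.08 (adjusted p = 0.00204) and the proprotein convertase gene Pcsk5 by 1.53 ± 0.22 (adjusted p = 0.00967) on the log2 scale, and both calls held in each fit without 1 library. Tmprss13 (log2 0.84 ± 0.25, adjusted p = 0.0769) and Pcsk6 (-0.28 ± 0.09, adjusted p = 0.102) did not pass with all 6 libraries. Tmprss13 passed in 2 of the 6 fits without 1 library, one of them that without wild-type replicate 3 (0.61, adjusted p = 0.0267).

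**Figure D5:**
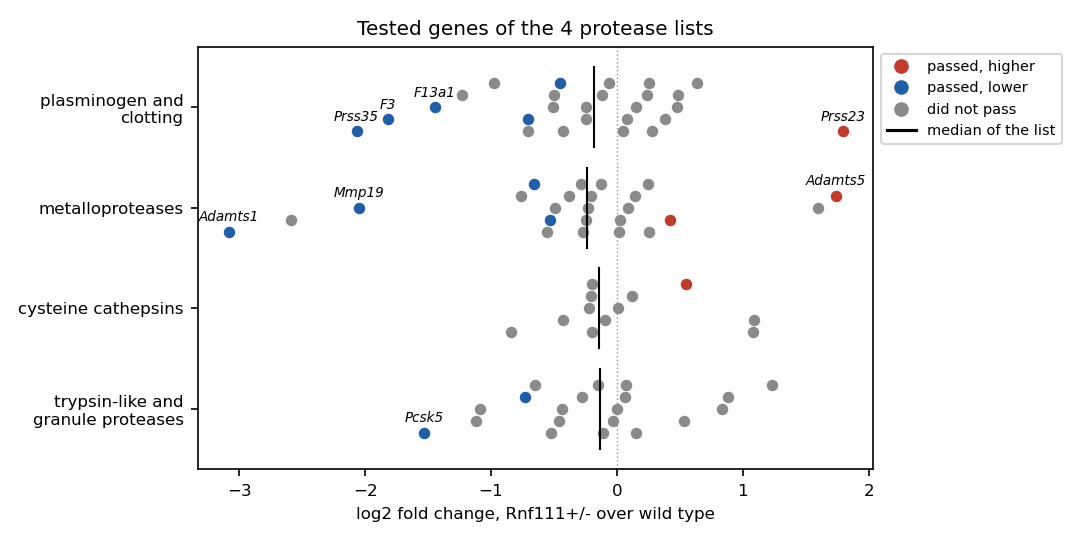
Log2 fold change (Rnf111+/- over wild type, x axis) of the tested genes of the 4 protease lists (y axis, with vertical offsets for legibility only). Red genes passed as higher, blue as lower and grey did not pass, and the medians of the lists lie between -0.24 and -0.13.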

How the data were processed

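For the 6 mouse ovary libraries the authors deposited raw counts of reads by gene symbol in a single table. The submitters' processing notes name fastp (0.20.1), HISAT2 (2.1.0), HTSeq (0.11.2), DESeq2 (1.38.3) and build GRCm39. Which annotation and strandedness the counting used is not given in the sources used here. Overlapping genes and close copies may therefore share reads. Groups follow the genotype in the labels. Each library is named after its own mouse. Chi-square over genes, divided by its degrees of freedom, was at least 9.6 between replicates, so all 6 were kept as separate samples, and 0 columns lacked a sample.

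Counts were analysed with edgeR (4.0.16, R 4.3.3): filterByExpr with default limits (10 counts in a library, 15 in all), scaling by the trimmed mean of M values, and a robust quasi-likelihood fit with genotype as its only term. P-values are two-sided, adjusted by Benjamini-Hochberg over 16841 genes, with a threshold of 0.05. SE is the absolute log2 fold change over the square root of F. The script was tested on simulated data. RPKM divides CPM by the exonic length in GENCODE M21, an annotation of GRCm38, so its levels are approximate. Sequences are RefSeq's (GRCm38.p6): 32 of the 40 symbols matched, and for Mug2 the 37 bases inside its GENCODE transcript were left out.

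The 40 genes and all lists were chosen with earlier results of these data known. Named were the genes that passed, a set of inhibitors given whatever their result, up to 4 genes of smallest p per protease list, and the overlapping genes Syn1, Syn2 and Syn3. Other inhibitors printed with values were chosen after those were seen. The values of 1 inhibitor gene and 1 clearance receptor are not reported here. Alternatives were 2 other scalings, 2 other filters, DESeq2 (1.42.0), limma-voom (limma 3.58.1), the replicate number as a block, and leaving out each library.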

Additional observations from a re-analysis of the deposited data

How the results depend on the processing

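Of 240 fold changes of single inhibitor genes with 1 library left out, 212 kept their direction and side of the threshold, 10 lost and 6 gained a call. Over 7 other alternatives 259 of 272 were kept, 4 lost and 6 gained a call. Leaving out 1 library gave 530 to 2795 changed genes in all, beside 1623, and 6 to 7 rises and 4 to 9 falls among inhibitors, beside 6 and 6. The 2795 were those without wild-type replicate 3, 16.2% of the genes tested in that fit. DESeq2 called 2532 genes, with 8 rises and 9 falls of inhibitors (adding Cst12, Serpina3g, Serpinb1b, Serpinb9 and Spink13). Upper-quartile scaling lost Serping1 (adjusted p = 0.0517) and split all calls into 792 rises and 836 falls, beside 657 and 966. Genes of the inhibitor set with values of both signs, none of which passed, were Cst6 (-0.46 to 0.24 without single libraries, 0.0038 with upper-quartile scaling), Serpinb3a (-0.76 to 1.72, and 1.04 with limma-voom), Itih4 (-0.49 to 0.18), Timp3 (-0.18 to 0.064), Serpinb12 (-0.13 to 1.78) and Serpinh1 (-0.28 to 0.027). The cause was not tested.

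Replicate numbers showed no clear pairing of the samples. Deviations from the group means correlated at 0.012, 0.0057 and 0.1 for numbers 1, 2 and 3, and at -0.071 to 0.059 between unlike numbers. With 3 libraries a genotype, these values cannot exclude a pairing. With the replicate block, 1626 genes passed, with 6 rises and 4 falls of inhibitors. Serpina5 (adjusted p = 0.0588) and Serping1 (0.0575) were among those lost, Serpina3g (0.00321) passed, and Serpinb3a was at 0.41. With 3 mice a genotype, an exact permutation of 1 gene cannot go below p = 0.1. For genes under 1 CPM, such as Serpinb3a and Itih4, low counts limit what can be detected.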

Other observations

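Protease inhibitors and carriers of families outside the symbol rule were also read from a list of 35 genes in the count table, 25 of them tested: 2 rose and 3 fell (20% passed, against 9.64% of all tested genes). Slpi, the secretory leukocyte protease inhibitor, was at 2.07, 3.22 and 1.67 CPM in Rnf111+/- ovaries and at 4.80, 7.85 and 5.24 CPM in wild-type ovaries (log2 -1.36 ± 0.31, edgeR adjusted p = 0.0283). Cd109, a membrane-anchored alpha-macroglobulin relative that binds TGF-beta, fell by 1.03 ± 0.21 (adjusted p = 0.0216) and Pebp1 by 0.33 ± 0.07 (adjusted p = 0.0229) on the log2 scale. Fetub, a cystatin-family inhibitor of ovastacin that keeps the egg coat soft before fertilisation, rose by 0.76 ± 0.17 (adjusted p = 0.0298), at 10.6, 12.7 and 8.88 CPM in Rnf111+/- ovaries and 6.24, 6.79 and 5.93 CPM in wild-type ovaries. Reck, a membrane-anchored inhibitor of metalloproteases that is on this and on the metalloprotease list, rose by 0.43 ± 0.10 (adjusted p = 0.0357). None of these 5 calls held in all 6 fits without 1 library: Cd109 passed in 4, Slpi in 3, Fetub in 2, while Pebp1 and Reck passed only without wild-type replicate 3.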
